A study of Mus musculus with 8 samples.

Results

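The skin of the forepaw was compared between PACAP and vehicle in WT mice 30 min after an intradermal injection. The comparison rests on 2 of the 8 arrays of the series, a dye swap of a single pair of RNA samples. PACAP-treated skin carried Cy5 and vehicle-treated skin Cy3 on one array, and the dyes were exchanged on the other. The members were all 39429 gene probes of the array, of which 37399 carried a gene name (27578 different names). WT mice were C57BL/6 males of 9 to 10 weeks of age. They received 5 µL of PACAP at 1e-07 mol/L in saline with 0.1% BSA, or 5 µL of the same vehicle alone, into the centre of the footpad. All mice, vehicle-treated mice included, were anaesthetised with midazolam, medetomidine and butorphanol. The other 6 arrays held the same comparison in WT mice at 60 min and in PAC1R KO mice (Adcyap1r1 -/-) at 30 and 60 min, with the same age, anaesthesia, vehicle and dose. There were 6 mice of each genotype, and which of them gave each RNA sample, or whether RNA was pooled, was not given in the sources used here. The 2 arrays therefore count as 1 replicate, and every value below describes 1 pair of RNA samples with no error between animals.

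PACAP is a neuropeptide that is released from nerve fibres around vessels and glands of the skin. Its receptor PAC1R, encoded by Adcyap1r1, couples to adenylyl cyclase, and the cAMP that follows activates protein kinase A and the transcription factor CREB. The related receptors VPAC1 and VPAC2 (Vipr1 and Vipr2) bind PACAP and VIP alike. Mice carry eccrine sweat glands only in the footpads, where secretory cells release water through the channel AQP5. The study asked which genes of this skin answer to PACAP, with sweat secretion in view.

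Each ratio is given as the log2 of the PACAP signal over the vehicle signal, so that 1 is a doubling, and the mean of both arrays is followed by the value of each array. The first array value is that with PACAP in Cy5 and the second that with PACAP in Cy3. A level is the log2 signal of a single channel after scaling over all 8 arrays, and levels are not compared between probes. A probe counted as measured where the software found 1 or both channels well above background on both arrays, which held for 30533 probes. It was called up-regulated where the mean reached 2.0-fold, and down-regulated where it reached 0.5-fold, provided that both arrays shared the direction and had a p below 0.01. This p is that of the Feature Extraction software for the signals of a single array and says nothing about animals. Where a gene had several probes, the brightest stands for it unless stated otherwise.

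By this rule 100 probes were up-regulated (0.328% of those measured) and 38 were down-regulated (0.124%). They carried 92 and 30 gene names. The rises had a median of 1.22 and the falls of -1.70. Among called probes above background in both channels of both arrays, the rises reached 2.17 (Krtap16-1) and the falls -3.32 (Krt36). Cytokines and chemokines, proteins of the skeletal muscle sarcomere and transcripts of repeated sequence were among the rises, and 27 of the 38 fallen probes lay in 1 stretch of chromosome 16 that holds keratin-associated proteins and predicted or unnamed transcripts. Below the limit of 2.0-fold, at any size, 364 probes above 0 and 70 below 0 had the same direction and a p below 0.01 on both arrays. The nearest of these were B430203I24Rik, at 1.99997-fold, and Ifi205 at 1.998-fold, while Klhl31 and Pitpnc1 lay just inside at a log2 ratio of 1.00. Among the falls Krt90 lay just inside at -1.06, and Krtap19-3, at 0.511-fold, lay just outside.

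How well both arrays matched differed with the signal. Over the 20682 probes above background in both channels on both arrays, the ratios of the 2 arrays correlated at 0.37, and the part that changed sign with the dye had a median size of 0.0783. Over the other 9851 measured probes the correlation was -0.47 and that size was 0.452. Both figures are across probes of 2 arrays, and probes are not independent replicates. Of 1014 probes past the fold and p limits on either array, 647 turned the other way on the second array of the pair. The called probes correlated at 0.95, which the rule of equal direction favours. Of the 100 rises, 67 had a vehicle signal above background on both arrays and 33 on 1 array. For probes printed on 10 spots, the SD between spots had a median of 0.0446 and 0.0502 on the arrays. The median of all measured probes was -0.05, and group medians below are to be read against it. With another background correction (normexp, followed by loess), 32 of the 100 rises and 25 of the 38 falls were still called.

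**Figure D1:**
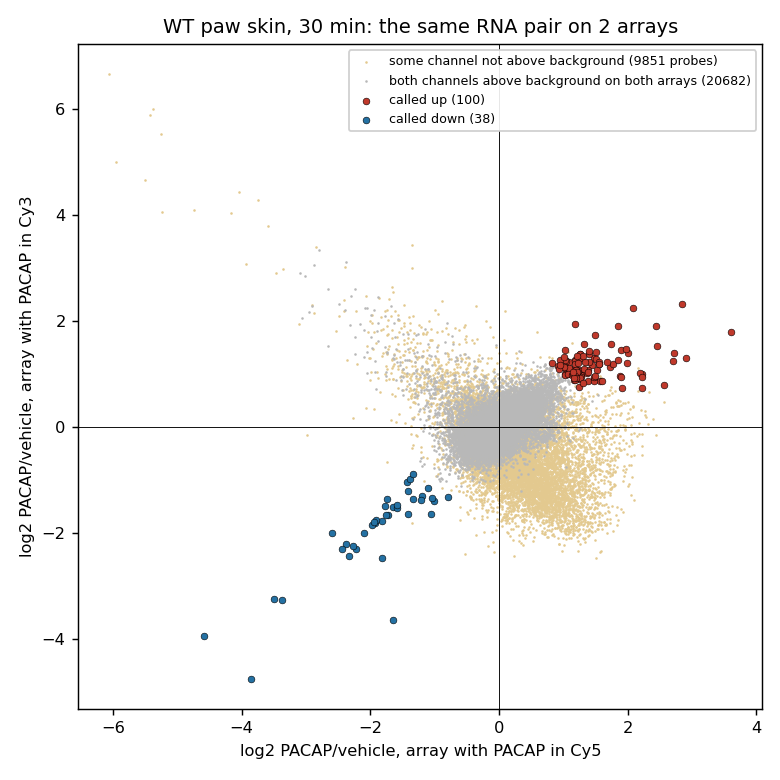
Log2 ratio of PACAP over vehicle in WT mice at 30 min on the array with PACAP in Cy5 (horizontal) against that with PACAP in Cy3 (vertical), 1 point per measured probe. Grey points are the 20682 probes above background in both channels on both arrays and tan points the other 9851; the 100 called rises (red) lie at the upper right and the 38 called falls (blue) at the lower left, while tan points spread along the falling diagonal, where the sign follows the dye.

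The tissue matched its label. Krt9, the keratin of palm and sole epidermis, had levels of 15.19 and 15.28 in vehicle-treated skin and 15.46 and 15.23 after PACAP. Aqp5 (NM_009701) had levels of 14.36 and 14.24 in vehicle-treated skin and 14.10 and 14.05 after PACAP, a ratio of -0.22 (-0.26 and -0.18), and its dimmer probe gave -0.31. Muscle was also present in the samples, since myoglobin (Mb) had levels between 15.1 and 15.8.

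The receptor for PACAP did not pass the rule. Adcyap1r1 (NM_007407; chromosome 6 of mm9, 55450829 to 55450888) had levels of 8.05 and 8.17 in vehicle-treated skin and 8.10 and 8.10 after PACAP, a ratio of -0.01 (0.05 and -0.07). The same probe lay above background in the mice labelled PAC1R KO, at 7.67 and 7.51 at 30 min, and where it lies relative to the deleted part was not given, so it does not check the labels. Vipr1 was at 0.21 and Vipr2 at 0.32, with -0.11 and -0.40 on a further probe of each. Adcyap1, which encodes PACAP itself, was at -0.50 (-0.88 and -0.12) at levels near 5. Vip was not above background in either sample. Of the 10 measured genes in this list of ligands, receptors and cyclases, 0 were called, and Adcy9 at 0.42 and Gnas, the stimulatory G protein subunit, at 0.39 were the highest.

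Genes that cAMP and growth signals switch on within minutes lay mostly above 0, without reaching 2.0-fold. Of 23 measured immediate early genes, 0 were called, 16 lay above 0 and 15 of these on both arrays, with a median of 0.27. The highest was Egr1, a zinc finger transcription factor, at 0.96 (1.09 and 0.82). Fos, a subunit of AP-1, followed with vehicle levels of 11.6 and PACAP levels of 12.5 on both arrays, a ratio of 0.89 (0.92 and 0.86). Fosb was at 0.86, Atf3 at 0.83, Klf4 at 0.70, Egr2 at 0.58 and Klf6 at 0.57. Egr3, at -0.47, Ier3, at -0.21, and Maff, at -0.16, lay lowest. In the other comparisons the median of the list was -0.10 (WT, 60 min), 0.00 (KO, 30 min) and 0.11 (KO, 60 min). Some lists of other kinds in WT at 30 min, such as fibroblasts and red cells, had medians at least as high.

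Among CREB targets and cAMP feedback genes, 1 of 21 measured members was up-regulated, and 18 lay above 0, with a median of 0.33. The called member was Ptgs2. Nr4a1, an orphan nuclear receptor, was at 0.79 (0.86 and 0.73), and the cAMP phosphodiesterases Pde4d and Pde4b were at 0.58 and 0.49. Per1 was at 0.47, Sik1 at 0.33, Dusp1 at 0.19 and Crem at -0.20. Pde10a was at 0.82, but its arrays differed in sign (1.79 and -0.15). None of the 14 measured MAP kinase feedback genes was called (median 0.08), nor any of the 15 measured NF-kappa-B feedback genes (median 0.17). The highest of the latter was Tnfaip3, which encodes the inhibitor A20, at 0.89 (0.79 and 0.99).

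Ptgs2 encodes cyclooxygenase 2, the inducible enzyme of prostaglandin synthesis. Its probe (NM_011198; chromosome 1 of mm9, 151954744 to 151954803) was printed on 10 spots. The level was 6.56 and 6.44 in vehicle-treated skin and 7.88 and 8.01 after PACAP. The ratio was 1.45 (1.32 and 1.57), or 2.72-fold, with an SD between spots of 0.07 and 0.04. The other 19 measured genes of prostaglandin synthesis and its receptors were not called, and the list had a median of -0.06. Ptges, a prostaglandin E synthase, was at 0.18, Ptgs1 at 0.20 and the receptor Ptger4 at -0.10.

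Interleukin 6 rose most among the called cytokines and chemokines. Il6 (NM_031168; chromosome 5, 30346367 to 30346426) had levels of 6.00 and 5.82 in vehicle-treated skin and 8.07 and 8.06 after PACAP. The ratio was 2.16 (2.08 and 2.24), or 4.47-fold, and 1.38 with the other background correction, where it was still called. Il1b, the precursor of interleukin 1 beta, read on 10 spots, had 7.03 and 6.92 in vehicle-treated skin and 8.06 and 8.04 after PACAP, or 2.10-fold. Its SD between spots was 0.06 and 0.07. In both genes the PACAP and vehicle levels did not overlap, which the calling rule favours for 2 arrays of the same RNA pair. Tnf was at 1.07 (1.52 and 0.62) and was not called. The interleukin 1 receptor antagonist Il1rn was at -0.62. In all, 2 of 18 measured cytokines were up-regulated, and 9 lay above 0, with a median of 0.00.

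Of 20 measured chemokines, 6 were up-regulated and 0 down-regulated. Cxcl1 and Cxcl2 attract neutrophils through CXCR2. Cxcl1 (chromosome 5, 91321845 to 91321904) had levels of 10.20 and 10.24 in vehicle-treated skin and 11.59 and 11.62 after PACAP, a ratio of 1.38 (1.39 and 1.38), or 2.61-fold. Cxcl2 was dimmer, with 3.15 and 4.36 against 5.85 and 5.60, and its vehicle signal was above background on 1 array. Its ratio was 1.97 (2.70 and 1.24). The monocyte attractants Ccl2 and Ccl7 moved alike. Ccl7 had 9.67 and 9.57 in vehicle-treated skin and 10.92 and 10.94 after PACAP, or 2.48-fold. Ccl2, read on 10 spots, had 10.09 and 10.20 against 11.25 and 11.09, or 2.04-fold, with an SD between spots of 0.02 and 0.05. Ccl3 was at 1.68 (1.90 and 1.46), with a vehicle signal above background on 1 array, and the interferon-inducible Cxcl10 was at 1.13 (1.38 and 0.87). Ccl4 was at 1.36 but did not pass the rule. The remaining members included genes of steady skin such as Cxcl12, at 0.00, Cxcl14, at 0.01, and Ccl27a, at -0.20. The median of the list was 0.23, with 15 members above 0. Ccl22, Cxcl3 and Ccl20 were not measured. With the other background correction, Cxcl2 came to 0.43, Ccl3 to 0.58, Il1b to 0.80 and Cxcl10 to 0.50, and these 4 were no longer called.

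The sequence before the start of these genes is shown for 3 of them, since they rose and hold the kappa-B core, the letters to which NF-kappa-B binds, and Il6 a part of the CRE, to which CREB binds. The sequences are from RefSeq on GRCm38.p6 and run from 150 bases before the start to the base before it. Il6 lies at chr5:30012964-30013113, Cxcl1 at chr5:90891095-90891244 and Cxcl2 at chr5:90903749-90903898, all on the plus strand. Capitals mark matches to the kappa-B core GGNNTTTCC and, in Il6, to the CRE half-site TGACG on the minus strand.
Il6: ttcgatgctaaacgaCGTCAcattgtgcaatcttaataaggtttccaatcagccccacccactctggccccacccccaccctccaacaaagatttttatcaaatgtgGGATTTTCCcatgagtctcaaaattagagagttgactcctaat
Cxcl1: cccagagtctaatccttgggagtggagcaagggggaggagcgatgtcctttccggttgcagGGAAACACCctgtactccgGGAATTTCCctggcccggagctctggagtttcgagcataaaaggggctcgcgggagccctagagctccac
Cxcl2: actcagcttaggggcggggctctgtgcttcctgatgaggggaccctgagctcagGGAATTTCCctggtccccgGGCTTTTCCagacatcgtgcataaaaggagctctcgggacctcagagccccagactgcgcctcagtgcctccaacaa
The kappa-B core begins at -43 in Il6, at -89 (minus strand) and -70 in Cxcl1, and at -96 and -77 in Cxcl2, counted from the start.

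Promoters of 250 bases before and 50 after the start were listed for 7 of the 9 called cytokines, chemokines and Ptgs2. The kappa-B core, searched on both strands, stood in 4 of the 7 (57.1%), which were Il6, Cxcl1, Cxcl2 and Cxcl10, against 5.82% of all 32851 promoters of that length. The full CRE TGACGTCA stood in 0 of the 7, against 1.79% of all promoters. Its half-site TGACG, which every full CRE also contains, stood in 3 of the 7 (Ptgs2, Il6 and Cxcl1), against 20.8%. For the immediate early list the half-site stood in 14 of 24 promoters of 18 matched genes (58.3%), and the kappa-B core in 3 of them (12.5%). AP-1 sites (TGANTCA) stood in Il6 and Cxcl10 among the 7, against 7.81% of all promoters. A match describes letters in this window and shows no bound factor.

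Markers of the cells that these chemokines attract were also read. Of 27 neutrophil genes, 25 were measured, 0 were called and 18 lay above 0, with a median of 0.36. Their mean level was 6.26 and 6.52 in vehicle-treated skin and 6.85 and 6.74 after PACAP. Fpr2, a receptor for formyl peptides, was at 1.42 without passing the rule, S100a9 was at 0.95 and S100a8 at 0.74, while Camp was at -0.15, and Cxcr1 and Ngp were not measured. Of 21 measured macrophage and monocyte genes, 0 were called and 17 lay above 0, with a median of 0.21. The part of these cells in the chemokine values was not tested. In bulk skin, fewer cells of a type and less RNA per cell cannot be told apart.

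The same genes did not all behave alike in the other comparisons. Il6 was at 0.17 at 60 min in WT, and in KO mice it was at 1.93 and 0.82 at 30 and 60 min. Cxcl1 was at -0.12, 0.96 and 0.44 in the same order, and Il1b at -0.80, 2.25 and 0.55. The vehicle-treated skin differed in level between times, since Cxcl1 stood at 10.22 in vehicle-treated WT skin at 30 min and at 12.35 at 60 min, above the 11.60 of PACAP-treated skin at 30 min. These levels come from different arrays and 1 RNA sample each, and no test was made on them.

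**Figure D2:**
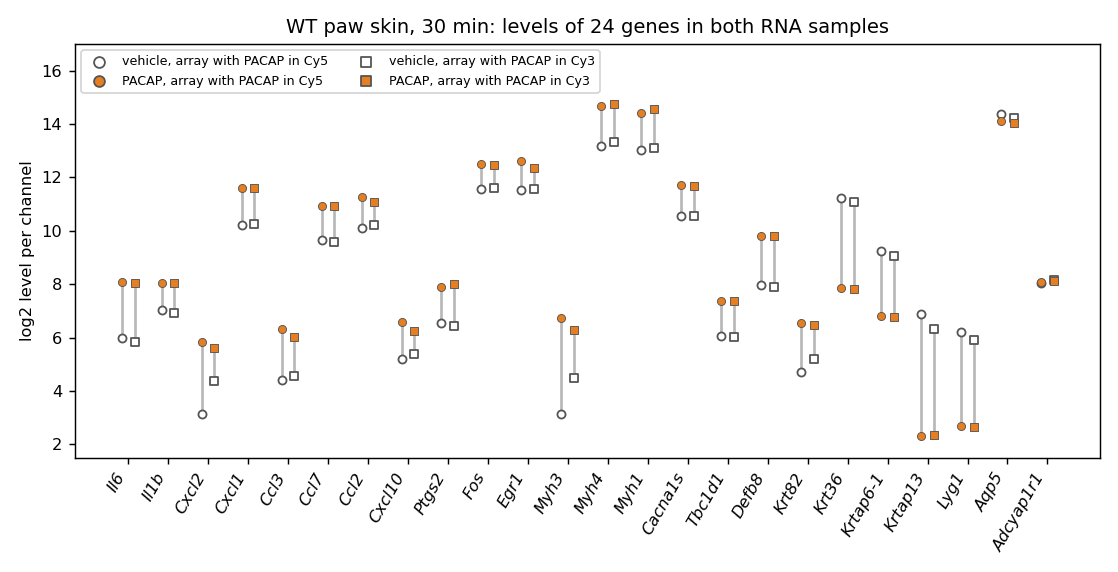
Log2 level of 24 named genes in the vehicle-treated (open) and PACAP-treated (orange) sample of WT mice at 30 min, with circles for the array with PACAP in Cy5 and squares for that with PACAP in Cy3. For Il6 the vehicle points lie at 6.00 and 5.82 and the PACAP points at 8.07 and 8.06, and for Krt36 the order is turned, at 11.23 and 11.09 against 7.86 and 7.82.

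Of 31 measured members of the eccrine list, which holds channels, transporters and regulators of the sweat gland, 0 passed the rule in either direction. Ptgs2 and Cacna1s, which the study also names for sweat secretion and which were called, stand in other lists. In the eccrine list 13 members lay above 0, with a median of -0.09 that became 0.0001 with the other background correction. Itpr2, the inositol trisphosphate receptor that releases calcium in sweat gland cells, was the highest at 0.82 (0.69 and 0.96). Slc12a2, the sodium, potassium and chloride cotransporter, was at 0.39 on both arrays, and the calcium-activated chloride channel Ano1 was at 0.29. Best2 was at -0.26 and Cldn3, a tight junction protein, at -0.45. Kcnn2, a calcium-activated potassium channel, was at 0.79 (0.82 and 0.76). It did not pass the rule. Each of its channels was above background on 1 array, and its spots had an SD of 0.43 and 0.46. Muc1 was not measured.

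Muscle genes lay above 0 nearly throughout. Of 44 sarcomere genes, all measured, 7 were up-regulated and 43 lay above 0, 41 of them on both arrays. The median was 0.72 and the range -0.05 to 1.65. Titin (Ttn, NM_011652), the molecular spring of the sarcomere, led the list. Its level was 11.32 on both arrays in vehicle-treated skin and 13.05 and 12.88 after PACAP, or 3.14-fold, and its dimmer probes gave 1.60, 1.21 and 0.88. The fast myosin heavy chain Myh4 had 13.17 and 13.34 in vehicle-treated skin and 14.67 and 14.76 after PACAP, a mean of 2.75-fold with 2.83-fold and 2.68-fold on the arrays. Myh1 was at 1.42, myotilin (Myot) at 1.22, Myh2 at 1.19, Myom2 at 1.16 and nebulin (Neb) at 1.07. The slow myosin Myh7 was at 0.57 by its brightest probe, while a dimmer one was called at 1.42, or 0.47 and not called with the other background correction. The 7 called probes for myosin heavy chains shared runs of at most 10 bases.

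Cacna1s, the voltage sensor of the muscle fibre (chromosome 1, 138016020 to 138016079), had 10.54 and 10.57 in vehicle-treated skin and 11.72 and 11.69 after PACAP. Its ratio was 1.15 (1.18 and 1.12), and its dimmer probe gave 0.65. It was the called member among 29 measured genes of the neuromuscular junction and excitation-contraction coupling, of which 27 lay above 0, with a median of 0.41. Trdn was at 0.93, Musk at 0.91, Pvalb at 0.81 and the calcium release channel Ryr1 at 0.79. Chrna1, a subunit of the muscle acetylcholine receptor, was at 0.47 (0.39 and 0.55) and at 0.95 on its dimmer probe, and neither passed the rule. Of 25 measured genes of muscle energy metabolism, 0 were called and 22 lay above 0, with a median of 0.52, Eno3 at 0.88 and Ckm at 0.73. Tbc1d1, a regulator of glucose transport, was at 0.40 by its brightest probe. Another of its probes was called at 1.32 (1.30 and 1.35), or 0.82 and not called with the other correction, and its dimmest was at 0.17.

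In the list of embryonic or regenerating muscle, Myh3, the embryonic myosin heavy chain, had 3.12 and 4.49 in vehicle-treated skin and 6.73 and 6.29 after PACAP, a ratio of 2.70 (3.61 and 1.80). Its vehicle signal was above background on 1 array, and the value fell to 0.81 with the other background correction. The perinatal Myh8 was at 1.39 and Abra at 1.09, and 3 of the 19 measured members of this list were up-regulated, 14 lay above 0 and the median was 0.25. With the other correction Abra came to 0.53, and Myh8, at 1.40, was the member still called. In the list of muscle stress genes, Pde4dip at 1.31 and Pak3 at 1.04 were called among 14 measured members, and Pak3 came to 0.66 with the other correction.

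The mean level of the sarcomere list was 10.12 and 10.22 in vehicle-treated skin and 10.90 and 10.94 after PACAP. In WT at 60 min it was 10.66 in both samples, in KO at 30 min 10.65 without and 10.03 with PACAP, and in KO at 60 min 10.39 and 10.52. The vehicle-treated WT sample at 30 min thus stood second lowest of the 8 samples and the PACAP-treated one highest. The medians of the ratio were -0.04, -0.64 and 0.06 in these comparisons. How much muscle each skin sample held was not measured apart from these genes, and its part in the rises was not tested. Lists of other cells of the dermis and below had smaller medians, of 0.28 for 26 measured fibroblast and matrix genes (25 above 0), 0.18 for smooth muscle, 0.16 for Schwann cells and nerve, and 0.04 for adipocytes. In the cartilage and bone list 2 of 25 measured genes were called, with Panx3 at 1.18 (1.32 and 1.05) and Col10a1 at -1.35 (-1.06 and -1.65), and the median was 0.19. Panx3 had a vehicle signal above background on 1 array. With the other correction Panx3 came to 0.32 and Col10a1 to -0.49, and neither was called.

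**Figure D3:**
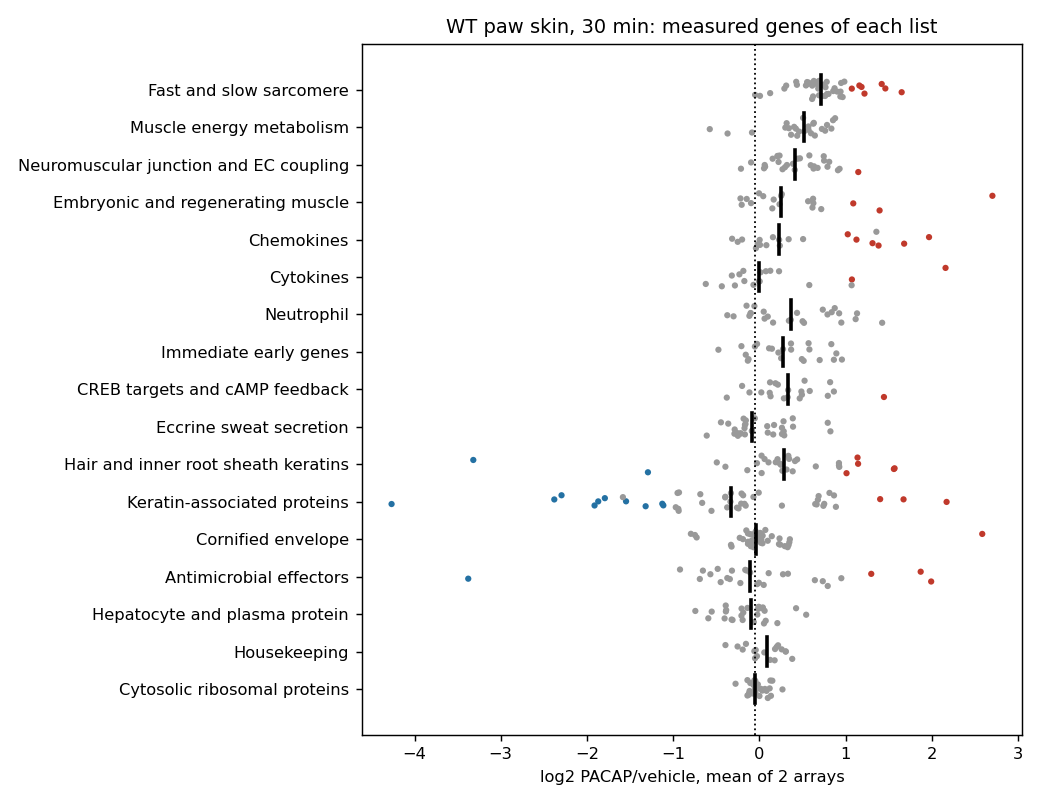
Log2 ratio of PACAP over vehicle (mean of both arrays) for the measured members of 17 gene lists in WT mice at 30 min, with called rises in red, called falls in blue and a black bar at the median. The dotted line is the median of all measured probes (-0.05); the sarcomere list lies almost wholly to its right (median 0.72) and the keratin-associated proteins lie on both sides of it, with 10 called falls and 3 called rises. The lowest point in that list, Krtap13, was not well above background after PACAP, so only its bound in the text is a measure of its fall.

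**Figure D4:**
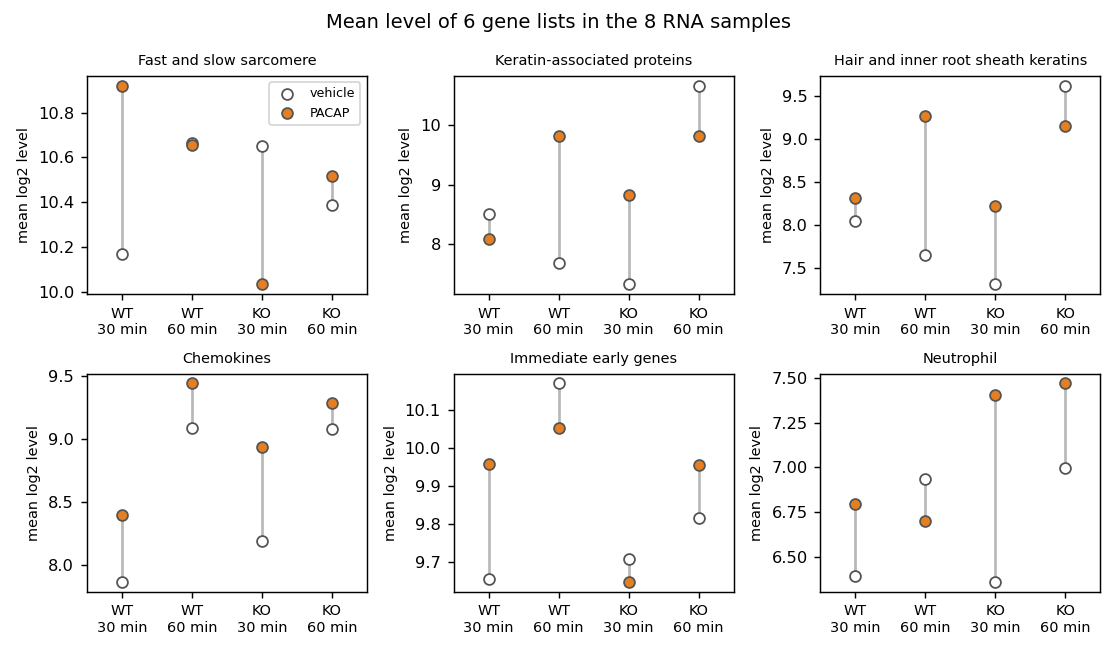
Mean log2 level of 6 gene lists in the 8 RNA samples (vehicle and PACAP in 4 comparisons), each the mean of 2 arrays. The sarcomere list goes from 10.17 to 10.92 in WT at 30 min, and the chemokine list from 7.87 to 8.40, which is below the 9.09 of vehicle-treated WT skin at 60 min.

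Proteins of the hair shaft were among the falls. Krt36, a hair keratin (NM_001174099; chromosome 11, 99963330 to 99963389), had levels of 11.23 and 11.09 in vehicle-treated skin and 7.86 and 7.82 after PACAP. The ratio was -3.32 (-3.37 and -3.27), or 9.98-fold lower, and its next probe gave -2.39. The predicted gene 2310034C09Rik, in the keratin-associated protein cluster, had 7.98 and 7.60 against 4.12 and 2.84, a ratio of -4.31, with the PACAP signal above background on 1 array, and -1.85 with the other background correction. Krtap13 had 6.88 and 6.32 in vehicle-treated skin and was not well above background after PACAP, which makes it at least 9.21-fold lower. This bound sets the vehicle level against the dimmest signals well above background on each array. Krtap6-1 had 9.24 and 9.07 against 6.80 and 6.76, or 5.20-fold lower. Krtap6-5, read on 10 spots, had 9.05 and 8.80 against 7.12 and 6.99, a ratio of -1.87 with an SD between spots of 0.05 and 0.09.

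Keratin-associated proteins crosslink the keratin filaments of hair and are made late in the growth of the hair shaft. Of 46 measured members, 3 were up-regulated, 10 were down-regulated and 33 lay below 0, with a median of -0.33. The rises were Krtap16-1 at 2.17 (2.44 and 1.91), Krtap31-1 at 1.67 and Krtap12-1 at 1.40, which came to 1.19, 0.51 and 0.87 with the other correction, so that only Krtap16-1 was still called. The falls were Krtap13, Krtap6-1, Krtap22-2, Krtap19-9b, Krtap6-5, Krtap6-2, Krtap1-5, Krtap21-1, Krtap8-1 and Krtap7-1, of which Krtap8-1 and Krtap7-1 were no longer called there. Members of the Krtap5 family lay on the other side without being called, with Krtap5-1 at 0.89 and Krtap5-2 at 0.87. The keratins and other proteins of the shaft and the inner root sheath were split as well. Of 30 measured members, Krt40, Krt82, Tchh, Krt35 and Krt28 rose, Krt36 and Krt84 fell, and the median was 0.29, with 24 above 0. Krt40, Krt82 and Krt28 lost the call with the other correction, at 0.40, 0.64 and 0.67. Tchh, trichohyalin of the inner root sheath, had 9.81 and 9.61 in vehicle-treated skin and 10.85 and 10.86 after PACAP, or 2.21-fold. Krt84 was at -1.29 (-1.21 and -1.38). Krt85 was at 0.03 by its brightest probe, and another of its probes was called at 1.06, or 0.96 and not called with the other correction.

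The falls were concentrated by position. Of the 38 fallen probes 27 lay on chromosome 16, where 1013 probes were measured. They lay between positions 88627289 and 89508335 of mm9, a stretch of 881 kb that was set by the fallen probes themselves and is given as a description. In this stretch 52 of 59 probes were measured, of which 27 were down-regulated, 0 were up-regulated and 49 lay below 0, with a median of -1.15 (-1.28 and -1.03 on the arrays). The 3 probes above 0 were Krtap26-1 at 0.69, Krtap13-1 at 0.65 and ENSMUST00000231885.1 at 0.01. In the 1000000 bp before it 5 measured probes had a median of -0.31, and in the 1000000 bp after it 12 had a median of 0.08. By the way the stretch was set, neither flank could hold a called fall, and 0 of their probes were up-regulated. The 34 measured Krtap probes off chromosome 16 had 3 rises, 1 fall and a median of -0.10.

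**Figure D5:**
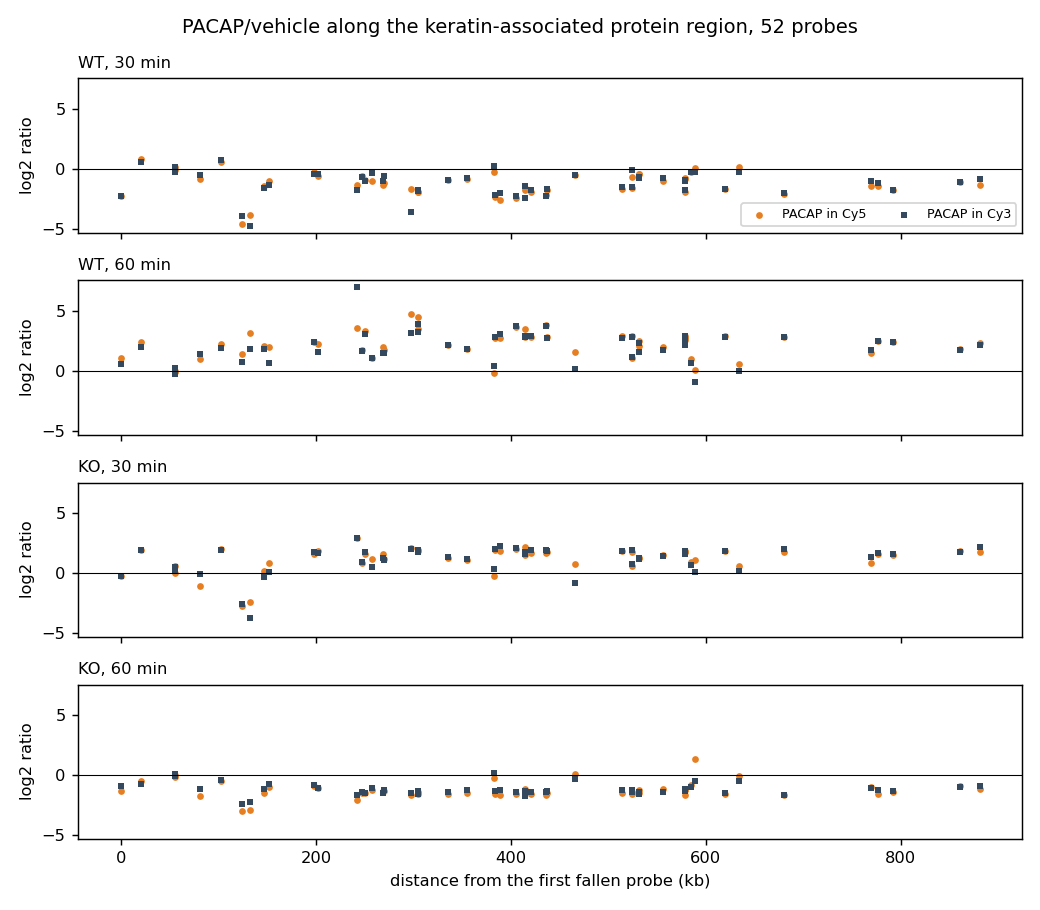
Log2 ratio of PACAP over vehicle for the 52 measured probes of the chromosome 16 stretch by distance in kb from the first fallen probe, in 4 panels for WT at 30 min, WT at 60 min, KO at 30 min and KO at 60 min. In WT at 30 min 49 of 52 lie below 0 (median -1.15); the medians of the other panels are 2.21, 1.61 and -1.40.

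Several fallen probes of this stretch read similar repeats, so they are not independent measurements. Among those shown, Gm10228 is the least like Krtap20-2, with 24 of 30 bases matching. The 30 most alike bases of 5 of these probes are shown for that reason, with capitals for bases that differ from the probe of Krtap20-2.
Krtap20-2: ggcctaggctatggctatggctatggctat
Gm35091: ggcctaggctatggctaCggctGtggctat
ENSMUST00000089101.1: ggcctaggctatggctatggctGtggctat
Gm10061: ggcctaggctatggctatggctatggctGt
Gm10228: ggcTGTggctatggAtGtggctCtggctat
Their ratios were -1.87 for Krtap20-2, -1.69 for Gm35091, -1.58 for ENSMUST00000089101.1, -1.56 for Gm10061 and -1.53 for Gm10228, and which copy each signal came from is uncertain. Among the 27 fallen probes of the stretch, 6 of 351 pairs shared a run of 20 bases or more, in 6 probes.

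The direction of this cluster varied between comparisons. Its median was 2.21 in WT at 60 min, with 50 of 52 probes above 0, then 1.61 in KO at 30 min, with 46 above 0, and -1.40 in KO at 60 min, with 1 above 0. Over the list of keratin-associated proteins, the mean level was 8.50 without and 8.09 with PACAP in WT at 30 min, and the 4 vehicle-treated samples ranged from 7.33 to 10.66. The difference between vehicle-treated samples was thus larger than the difference between PACAP and vehicle at 30 min in WT. How many growing hair follicles each sample held was not measured apart from such genes, and its part was not tested.

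Antimicrobial genes moved in both directions. The beta defensin Defb8 had 7.98 and 7.89 in vehicle-treated skin and 9.82 and 9.79 after PACAP, a ratio of 1.87 (1.84 and 1.90), or 3.66-fold. Its neighbour Defb7 was at 1.99 (2.46 and 1.53), with a vehicle signal above background on 1 array. Gbp4, an interferon-inducible GTPase, was called at 1.30. Lyg1, a lysozyme of the goose type, had 6.19 and 5.90 in vehicle-treated skin and was not well above background after PACAP, which makes it at least 5.47-fold lower. Of 27 measured members, 3 rose and 1 fell, with a median of -0.11 that was 0.05 on the array with PACAP in Cy5. Defb8 was still called with the other correction, at 1.67, while Defb7 (0.66), Gbp4 (0.42) and Lyg1 (-0.78) were not. Other defensins lay below 0 without being called, with Defb4 at -0.92, Defb3 at -0.66 and Defb1 at -0.48. In the cornified envelope, 1 of 42 measured genes was called, the S100 gene S100a7l2 at 2.59 (2.85 and 2.33), or 1.23 and still called with the other correction, and the median was -0.04. Filaggrin (Flg) was at 0.35 and loricrin (Lor) at -0.13. None of the 13 measured keratins of palm and interfollicular epidermis (median 0.14) and none of the 21 measured genes of the wound response (median -0.09) was called.

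A further group of rises lay in predicted transcripts of repeated sequence. All 5 measured probes below position 3100000 of chromosome 9, a limit set after their values were seen, were up-regulated, with a median of 1.37 (1.17 to 1.48), and so were 2 predicted transcripts on chromosome 2 at 1.37 and 1.22. Of the 21 pairs of these 7 probes, 5 shared a run of 20 bases or more. A window of 30 bases is shown for 4 probes of chromosome 9, and the last 3 match the first at 29, 29 and 24 bases. Capitals mark bases that differ from the probe of ENSMUST00000099050.3.
ENSMUST00000099050.3: tttctcattttccatgattttcagttttct
ENSMUST00000099046.3: tttctcattttccatgattttcagCtttct
ENSMUST00000177969.1: tttctcattttccatgattttcagCtttct
ENSMUST00000099042.3: tttctcattttTcaCgTttttcagtGAtTt
These 4 were at 1.48, 1.39, 1.37 and 1.19, and they read repeated sequence that cannot be assigned to 1 copy. The 5 probes of chromosome 9 had a median of -1.07 at 60 min in WT, and medians of 1.58 and 0.47 at 30 and 60 min in KO mice. Zinc finger genes supplied 7 more called rises, led by Zfp994 at 1.45, and 3 of the 21 pairs of these probes shared 20 bases or more. With the other correction these 7 lay between 0.36 and 0.98, and none was called. Over all 548 measured Zfp probes the median was 0.17, with 374 above 0.

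Markers of other cells were largely without calls. Lists for Langerhans cells and MHC class II (median 0.17), mast cells (0.27), lymphocytes (-0.27, and 0.10 on the array with PACAP in Cy5), endothelium (-0.01), sebaceous gland (0.23), melanocytes (-0.12, and 0.08 on that array), red cells (0.43) and plasma proteins of the liver (-0.10) had 0 called members. Heat shock proteins (0.23), genes that glucocorticoids induce (0.19), the circadian clock (0.16), the cell cycle (-0.06), ribosomal proteins (-0.05) and the respiratory chain (0.06) had none either. Gapdh was at 0.38 (0.40 and 0.36), and its 8 probes lay between 0.22 and 0.43. The median of the housekeeping list was 0.09. Of 28 measured interferon-inducible genes Gbp4 and Cxcl10 were called, and the median was 0.20.

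Whether any probe in WT at 30 min stood apart from the other 3 comparisons was tested with limma, with each comparison as 1 value. This assumes that the lone WT value varies like the other 3, and the KO arrays lay on another slide. Over 30351 probes, limma found 0 with an adjusted p under 0.05 (0%) and 1478 at that limit without adjustment. Leaving out WT at 60 min gave 83 probes under that limit, leaving out KO at 30 min 0 and leaving out KO at 60 min 195. Each of these fits sets 1 value against 2. Its spread rests on the difference between those 2 and on what limma borrows from other probes. Nothing is read from these counts. The smallest adjusted p was that of Sprr2e, a small proline-rich protein of the cornified envelope, at 0.258 in limma. Its ratio was -0.23 in WT at 30 min with opposite signs on the arrays, at signals above background on 1 array in each channel, and 2.65, 2.64 and 3.08 in the other comparisons. The difference was -3.02 with a standard error of 0.283. Sprr2g (-0.15 against 2.11 or more) and Csta3 (0.38 against 2.98 or more), both of keratinocytes, and both probes of Myh3 came next, each at an adjusted p of 0.831 in limma.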

How the data were processed

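Total RNA of forepaw skin was labelled with Cy3 and Cy5 and hybridised to Agilent mouse 4 x 44K arrays, 2 dye-swapped arrays per comparison. Scans were processed by the authors in Agilent Feature Extraction (12.0.3.1 in the file headers, 11.0.1.1 in the submitters' processing notes). The deposited intensity values are signals per channel, corrected for background and normalized between dyes by LOWESS within each array, beside mean signals and local backgrounds. The deposited p-values come from the software's error model for single spots. The deposited series matrix gives log10 ratios of red over green. Each array held 44397 spots, 1377 of them controls, and 252 and 264 probe spots of the WT arrays at 30 min were left out as outliers. There were 0 saturated spots. The red channel was well above background at 78.6% and 84.6% of spots and the green at 54.0% and 58.1%, and the number of arrays limits the precision.

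Here log2 ratios were taken from the processed signals, turned to PACAP over vehicle, averaged over spots and then over both arrays. Levels were scaled with Aquantile in limma 3.58.1 (R 4.3.3). The limma fit (lmFit, eBayes) used Benjamini-Hochberg adjustment, and was tested on simulated data. Python 3.11.15, numpy 2.4.6, pandas 2.3.3 and matplotlib 3.10.9 were used. Gene names and mm9 positions are those of the files. The direction of each ratio was taken from the dye of each sample in the labels. For a called probe below background in one sample, the fold is a bound.

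The 43 gene lists and the members were chosen with earlier results of these data known. Named genes are those of the 15 largest rises and 15 largest falls, the ligand and receptor genes, Aqp5, Gapdh, the genes the study's text names for WT mice at 30 min, called and largest members of each list, and the 5 smallest p of the limma fit. Genes named beside these were chosen after their values were seen. Alternatives were normexp (offset 50) with loess, median centring, outlier spots kept, the series matrix ratios, other p, fold and background limits, single arrays, and left-out comparisons.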

Additional observations from a re-analysis of the deposited data

Results flagged for a closer look

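Each gene and list here moved one way on both arrays of WT mice at 30 min and the opposite way on both arrays of another comparison. Of the genes with the strongest rises and falls, those with a mean log2 ratio of at least 1 in the other comparison are given, and of the lists those with a median of at least 0.5, in either direction. These differences were not tested, since each comparison is 1 pair of RNA samples. In WT at 60 min the following fallen genes lay above 0. The log2 ratio there was 2.47 for 2310034C09Rik, 1.08 for Krtap13, 2.93 for Lyg1 and 2.51 for Krt36. It was 3.67 for Krtap6-1, 2.89 for Gm10229, 2.78 for Krtap22-2, 2.77 for 1110025L11Rik and 2.83 for Gm10228. It was 4.22 for Krtap19-9b, 2.87 for Krtap6-5, 3.91 for the unnamed probe A_55_P2007103 and 2.81 for the unnamed probe A_55_P2166873, and the median of the keratin-associated proteins was 2.19.

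In KO at 30 min the same direction was seen for Krtap6-1 (2.04), Gm10229 (2.01), Krtap22-2 (1.96), 1110025L11Rik (1.74) and Gm10228 (1.60). Krtap19-9b was at 1.89, Krtap6-5 at 1.77, A_55_P2007103 at 2.03 and A_55_P2166873 at 1.87, with a median of 1.65 for the keratin-associated proteins. In the other direction, BC002189 and the sarcomere list lay above 0 in WT mice at 30 min and below 0 there, at -1.03 and with a median of -0.64. Other rises lay below 0 on both arrays there as well, such as Myh8 at -1.20 and Abra at -0.87.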

How the results depend on the processing

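Normexp and loess moved the calls to 32 rises and 25 falls, all among the 100 and 38, and 13 of 41 named genes lost their call without a change of sign, Myh3, Cxcl2, Ccl3, Lyg1 and Panx3 among them. Without the p filter 165 probes rose and 57 fell, and at 1.5-fold 446 rose and 103 fell. Single arrays gave 293 to 382 rises and 245 to 320 falls. Under median centring, a p below 0.001, 2.0-fold on each array, outlier spots kept, the series matrix ratios, other background filters and distinct genes, the counts stayed between 67 and 108 rises and 28 and 38 falls. The median of the immediate early list was 0.30 under centring, 0.37 with both channels above background and 0.33 to 0.35 on single arrays. That of the chemokines was 0.21 to 0.37 on single arrays. The sarcomere median was 0.65 under normexp and loess and 0.70 to 0.79 on single arrays. The keratin-associated protein median was -0.21 under normexp and loess, -0.31 under centring and -0.34 to -0.32 on single arrays. Medians changed sign for further lists. On the array with PACAP in Cy5 these were lymphocytes (0.10, from -0.27 over both arrays), antimicrobial effectors (0.05), melanocytes (0.08), endothelium (0.09), plasma proteins (0.0006), ribosomal proteins (0.02) and the respiratory chain (-0.01), and on the other array the cytokines (-0.12). Under normexp and loess these were the eccrine list (0.0001) and endothelium (0.05), under centring endothelium (0.02), and over all probes of a gene the ligands and receptors (-0.03) and housekeeping genes (-0.01). In limma, leaving out 1 comparison gave 0 to 195 probes past an adjusted p of 0.05, from fits of 1 value against 2 that say nothing of stability, and 0 under the other settings. The cause of these shifts was not tested. No paired analysis was possible because the replicate number marks the dye orientation of the same RNA pair.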

Other observations

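Further genes of keratinocytes among the smallest unadjusted p of the limma fit had ratios below 0 in WT mice at 30 min. Lce3a, of the late cornified envelope, was at -0.75 (-0.76 and -0.74) against 1.56, 2.64 and 3.30 in WT at 60 min, KO at 30 min and KO at 60 min. Defb4 was at -0.92 against 1.05, 1.52 and 2.31 in that order, and Krt17, a keratin of activated epidermis, at -0.15 against 1.07, 1.20 and 1.07. None of them passed the adjusted p of 0.05.

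Among red cell genes, 9 of 11 on the array were measured, and their median was 0.43 in WT at 30 min and -0.90 in WT at 60 min. The mean level of the list was 11.18 without and 11.46 with PACAP at 30 min. Nfib, a transcription factor of the skin epithelium, was called at 1.21 (1.32 and 1.09) with levels of 10.66 and 10.69 in vehicle-treated skin and 11.98 and 11.78 after PACAP. Ppp3ca, a catalytic subunit of calcineurin, was called at 1.22 (1.17 and 1.26).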
